A study of Homo sapiens with 12 samples.

Results

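The microRNA part of the gene table comprised every entry whose gene symbol begins with MIR and whose raw counts, summed over the 12 samples, reached 60 or more. This rule selected 61 entries of the 1192 MIR entries and of the 52889 gene entries in all. They fell into 33 single microRNA entries and 28 host gene entries (symbols of the form MIR...HG), and the latter are described apart. The values that chose the members were the summed counts themselves, so the level of the members is a description only. The lowest member was MIR4754 with 63 counts, followed by MIR3687-1 and MIR3687-2 with 64 counts each, while MIR4734, MIR4638, MIR639 and MIR1-1HG stayed outside with 57 counts each. All 61 members passed the filter on low values. The other 1131 MIR entries (1097 single entries and 34 host entries) had a median of 2 counts over all samples.

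The counts come from an ATAC-Seq experiment, in which a transposase inserts adapters into accessible DNA, and each value is the number of reads assigned to a gene entry. They therefore measure accessible DNA over the entry and not the amount of a microRNA. The samples were HEK293T cells, a human embryonic kidney cell line, in 4 groups of 3 biological replicates. Mock cells carried the empty pSBTet-GP vector. The d0 cells constitutively expressed MLL-AF4, a fusion protein of the t(4;11) translocation, the d3 cells in addition expressed the reciprocal AF4-MLL after 48 h of induction with 1 µg/ml doxycycline, and the d28 cells were taken 25 days after AF4-MLL was switched off again. MLL-AF4 was present in d0, d3 and d28 cells and absent from Mock cells, so each comparison with Mock contains the effect of MLL-AF4 and of the time in culture as well. The comparisons of d3 and d28 with d0 also contain the second transfection and the longer culture. By the study's account, blasticidin was given together with doxycycline during the 48 h. None of these can be told apart from an effect of AF4-MLL. MLL-AF4 came from a constitutive Sleeping Beauty vector in a stably transfected population, AF4-MLL was transfected transiently, and the day of harvest of the Mock cells is not given. By their labels, d0 and d28 do not differ in genotype, and the earlier induction of d28 cells is taken from the study's own account.

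A microRNA gene is transcribed into a long primary transcript, from which DROSHA and DGCR8 cut a hairpin. DICER1 then trims the hairpin to a short mature RNA that guides an AGO protein to messenger RNAs, and pairing of the seed, the bases near its 5′ end, decides which messenger RNAs are recognised. Many microRNAs lie inside longer noncoding transcripts, their host genes, or inside introns of coding genes. In leukaemia with MLL fusions the MIR17HG cluster is well known as a growth-promoting locus, and the let-7 family is known for restraining growth genes such as RAS, MYC, HMGA2 and LIN28B.

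The sequences of the microRNAs that the results below turn on are shown first, from RefSeq (GRCh38.p14), 5′ to 3′, with the seed (bases 2 to 8) in capitals. The seed GAGGUAG of the let-7 family occurred in microRNAs of 5 of the 28 hosts, namely MIRLET7BHG, MIR99AHG, MIR100HG, MIR4500HG and MIR4458HG, and 5 different mature RNAs with this seed come from them. A choice of them is printed to show the shared seed beside the differing remainder, together with hsa-miR-3619-5p, which lies in MIRLET7BHG but has another seed.
hsa-let-7b-5p (MIRLET7BHG): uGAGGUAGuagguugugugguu
hsa-let-7a-5p (MIRLET7BHG, MIR100HG): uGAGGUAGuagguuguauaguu
hsa-miR-4500 (MIR4500HG): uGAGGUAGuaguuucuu
hsa-miR-4458 (MIR4458HG): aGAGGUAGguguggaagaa
hsa-miR-3619-5p (MIRLET7BHG): uCAGCAGGcaggcuggugcagc

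Among the single members, hsa-miR-3666 shared its seed AGUGCAA with 5 other mature microRNAs of the table, the miR-130 and miR-301 family among them, 2 of which are printed for comparison. By contrast, no other mature RNA had the seed of hsa-miR-6090 or of hsa-miR-3648, and 1 other had that of hsa-miR-6724-5p.
hsa-miR-3666: cAGUGCAAguguagaugccga
hsa-miR-130b-3p: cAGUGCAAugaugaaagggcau
hsa-miR-301a-3p: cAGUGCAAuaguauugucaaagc
hsa-miR-6090: gGGGAGCGaggggcggggc
hsa-miR-3648: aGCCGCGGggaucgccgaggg
hsa-miR-6724-5p: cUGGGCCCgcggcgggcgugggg

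Several single members are near-identical copies, so that reads cannot be assigned to a copy with certainty. The hairpins of MIR3180-1 and MIR3180-3 were identical over 94 bases, the hairpin of MIR3180-2 (88 bases) was contained in both, and MIR3180-4 and MIR3180-5 shared 151 of 153 bases. The hairpins of MIR6724-2 and MIR6724-4 were identical over 92 bases. The MIR3180-2 hairpin (chr16:16309879-16309966, plus strand) is shown with both mature arms in capitals because this family makes up 5 of the 33 single members.
MIR3180-2 hairpin: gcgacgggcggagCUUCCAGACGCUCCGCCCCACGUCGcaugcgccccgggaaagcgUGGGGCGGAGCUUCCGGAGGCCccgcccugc

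Total counts per sample ranged from 353430 (Mock replicate 3) to 3539937 (d28 replicate 1), and the share of mitochondrially encoded genes from 26.4% to 68.5%. Counts were therefore normalized by TMM factors, and a normalized count below is the count scaled to the mean effective library of the 12 samples. Differences were tested in edgeR's quasi-likelihood fit over 27579 genes with Benjamini-Hochberg adjustment, and an entry is called here at an adjusted p below 0.05. Because the fit set the spread of each gene from the trend over all genes, a single high library can lead to a call, and the values of all samples are given. In bulk samples, fewer cells with accessible DNA at a site and less access per cell cannot be told apart. The summed normalized counts of 5 genes fixed as HEK293 markers (KRT8, KRT18, VIM, NEFL, NEFM) lay between 154 and 208 in all samples. Counts of accessible DNA do not check the cell type as expression would.

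The members held 19280 of 24958 counts on MIR entries (77.2%), and a single entry, MIR6723, held 9738 of them, or 50.5% of all member counts. Without MIR6723, 3887 counts were on single entries and 5655 on hosts. Precision was thus limited, since 31 of 61 members had a mean normalized count under 10 and 13 had 20 or more, and 8 members had no count in at least 1 sample. The d28 samples gave 47.9% of all member counts, and 31.7% without MIR6723. These shares are of raw counts and are not scaled to depth. Mean total counts per sample were 429600 in Mock, 673070 in d0, 1041600 in d3 and 2260800 in d28.

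The 28 hosts together had similar summed levels in all groups. Their summed normalized count was 467 ± 22.8 in Mock, 466 ± 34.9 in d0, 475 ± 3.63 in d3 and 463 ± 27.9 in d28 (SD, n = 3 each). The groups overlapped, and the samples ranged from 432 to 505. The 32 single members other than MIR6723 summed to 397 ± 67.8 in Mock, 346 ± 18.8 in d0, 316 ± 63.9 in d3 and 281 ± 14.2 in d28. The d28 samples ranged from 268 to 296, so that the d28 samples lay below all Mock samples, which began at 328. When the ribosomal DNA families MIR3648, MIR3687 and MIR6724 were left out as well, the remaining 24 single members summed to 273 ± 11.9, 290 ± 22.1, 253 ± 17.95 and 232 ± 12.1 in Mock, d0, d3 and d28.

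Against Mock, 4 members were called at d0, where 0.609% of all tested genes were called. MIR6723 and MIR3666 were higher and MIR3648-1 and MIR3648-2 lower, and no host was called. At d3, 5 members were called against a background of 1.27%, with MIR6723, MIR3666 and MIRLET7BHG higher and MIR3687-2 and MIR3648-1 lower. At d28, 5 members were called against a background of 1.45%, with MIR6723 higher and MIR3648-1, MIR3648-2, MIR3687-2 and MIR6724-1 lower. These 3 comparisons share the Mock samples, and the called sets are listed side by side and not as separate support. Between days, 2 members were called for d3 versus d0 (background 0.91%), 3 for d28 versus d0 (background 1.35%) and 1 for d28 versus d3 (background 0.37%). For d0, d3 and d28 against Mock, the median log2 fold change of the members was -0.07, -0.08 and -0.17, compared with -0.0017, 0.03 and 0.03 over all tested genes. Between days it was -0.08 for d3 versus d0, -0.14 for d28 versus d0 and -0.12 for d28 versus d3, compared with 0.02, 0.04 and 0.0063. The DESeq2 Wald test, with its own filter on low counts, called 1 member in each of the 6 comparisons, and gave no adjusted p for 34 to 58 of the 61 members in every comparison except d28 versus d3, where all had one.

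**Figure D1:**
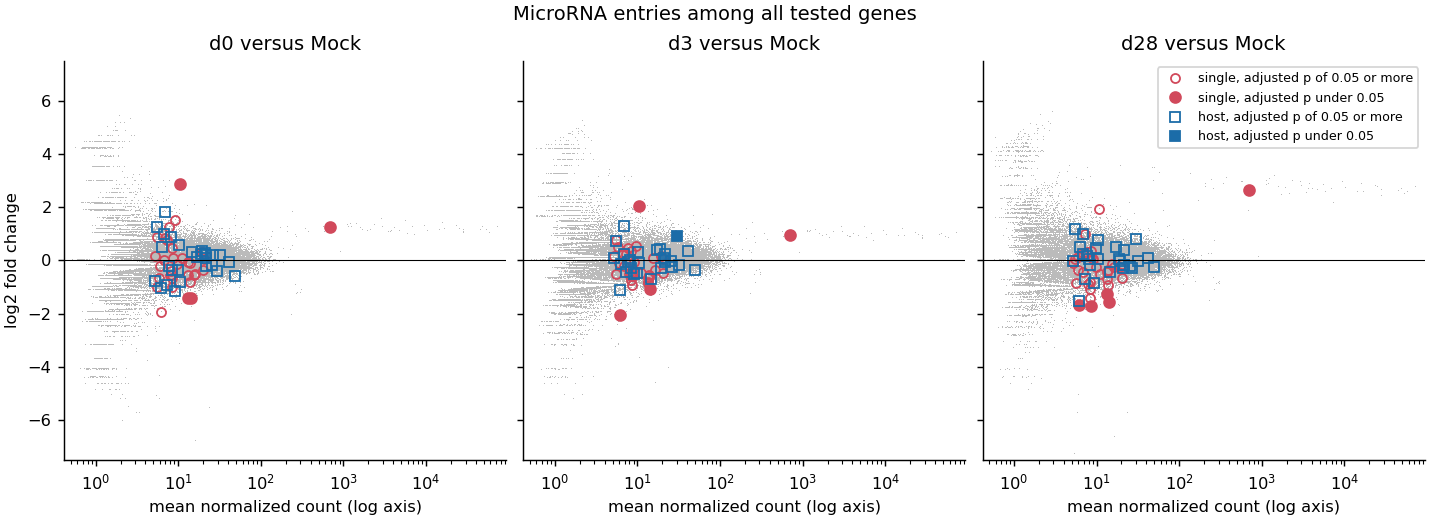
Log2 fold change against Mock (vertical axis) by mean normalized count over all samples (horizontal log axis) for d0, d3 and d28, with grey dots for the 27579 tested genes, circles for the 33 single entries and squares for the 28 hosts (filled where the adjusted p was under 0.05). Most members lie within the cloud of tested genes, while MIR6723 stands far to the right at a mean of 695 and MIR3666 is high at d0 with a log2 fold change of 2.87.

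MIRLET7BHG, the noncoding host of let-7a-3 and let-7b (chr22:46085997-46113928, GRCh38.p14), was the only host called in any comparison. The normalized counts were 23.9, 24.5 and 16.6 in the Mock replicates, 13.7, 12.8 and 23.3 in d0, 42.3, 37.7 and 46.8 in d3, and 38.5, 38.0 and 39.3 in d28. Each of the d3 and d28 samples lay above every Mock and d0 sample, while Mock and d0 overlapped. The log2 fold change between d3 and d0 was 1.34 ± 0.25 (SE, adjusted p = 0.000243, edgeR) and between d28 and d0 1.20 ± 0.25 (adjusted p = 0.000673). Against Mock it was 0.93 ± 0.24 at d3 (adjusted p = 0.0178) and 0.79 ± 0.25 at d28, where it missed the threshold (adjusted p = 0.0714). For d0 versus Mock it was -0.41 ± 0.33 (adjusted p = 0.736), and d28 and d3 differed by -0.14 ± 0.18 (adjusted p = 0.871). Of these calls, that for d3 versus Mock was lost with the DESeq2 Wald test (adjusted p = 0.122) and without any 1 Mock replicate or d3 replicate 3, and those for d3 and d28 versus d0 held in DESeq2 when no filter was applied (adjusted p = 0.0396 and 0.0359). Scaling by library sizes only ended the calls for d28 versus d0 (log2 fold change 0.29, adjusted p = 0.425) and d3 versus Mock (0.57, adjusted p = 0.248).

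The stretch from 250 bases before to 50 bases after the RefSeq start of MIRLET7BHG (chr22:46085747-46086046, plus strand) is printed with its CG dinucleotides in capitals, as the window around the start of the only called host. It held 13 CG dinucleotides, more than 48.5% of the 27305 promoters of the same length in the table.
MIRLET7BHG promoter: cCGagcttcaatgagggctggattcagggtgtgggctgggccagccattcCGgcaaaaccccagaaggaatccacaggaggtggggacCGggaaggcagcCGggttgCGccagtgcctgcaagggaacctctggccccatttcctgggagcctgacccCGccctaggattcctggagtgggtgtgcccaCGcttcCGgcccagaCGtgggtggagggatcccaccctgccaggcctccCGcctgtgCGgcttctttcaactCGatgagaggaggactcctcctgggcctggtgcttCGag

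Of the 4 microRNA genes inside MIRLET7BHG, only MIR3619 was listed in the count table, with 9 counts over all samples, and MIRLET7A3, MIR4763 and MIRLET7B were not listed. The table entries within 150000 bases of the host were then examined, a set chosen after the values of the host had been seen. Only PRR34-AS1, an antisense noncoding gene that starts upstream of the host (chr22:46053846-46058522), was called. Its normalized counts were 2.99, 5.16 and 5.54 in Mock, 3.73, 2.84 and 1.29 in d0, 26.2, 21.4 and 19.8 in d3, and 22.2, 18.3 and 16.0 in d28. Every d3 and d28 sample was above every Mock and d0 sample, as for the host. From 6 raw counts in d0 to 84 in d3, the ratio per effective depth was 8.56 (exact 95% Poisson interval 3.77 to 24.0, counting error only), and the log2 fold change was 3.04 ± 0.46 (adjusted p = 4.26e-07, edgeR). At d28 versus d0 it was 2.84 ± 0.47 (adjusted p = 9.61e-07), and against Mock 2.28 ± 0.43 at d3 and 2.08 ± 0.44 at d28 (adjusted p = 5.28e-05 and 0.000431). The call for d28 versus Mock was lost with library sizes only and in DESeq2 when no filter was applied (adjusted p = 0.0591). Both comparisons with d0 share the d0 samples. PRR34-AS1 overlaps PRR34 over part of its length, ATAC-Seq reads carry no strand, and PRR34 itself was not called (log2 fold change 0.26 ± 0.35 for d3 versus d0). WNT7B, LINC00899, PPARA, CDPF1 and PKDREJ were not called in any comparison either.

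The other 27 hosts gave no call in edgeR. Over all 27579 tested genes, 2662, 3118 and 3441 had an unadjusted p below 0.05 at d0, d3 and d28 versus Mock. Of all 28 hosts, 4, 3 and 3 did. Against Mock, their log2 fold changes ranged from -1.13 (MIR1302-2HG) to 1.82 (MIR3663HG) at d0, from -1.10 (MIR31HG) to 1.28 (MIR3663HG) at d3 and from -1.54 (MIR31HG) to 1.18 (MIR137HG) at d28. Their lowest adjusted p-values were 0.191, 0.331 and 0.102. The median standard error of these hosts was 0.48, 0.40 and 0.38, against 0.245 for MIRLET7BHG at d3, and smaller differences were not detectable at this depth. MIR3663HG had 3.02 ± 1.32 normalized counts in Mock and 11.1 ± 2.81 in d0, which did not overlap (1.497 to 3.87 against 8.71 to 14.2), but its adjusted p was 0.191. MIR31HG, the host of miR-31, had 10.8 ± 4.75 in Mock and 3.49 ± 1.09 in d28, with an adjusted p of 0.102.

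MIR4500HG held the most counts of the hosts (587, a level per entry and not per length), with 59.9 ± 6.53 normalized counts in Mock, 39.5 ± 8.55 in d0, 47.01 ± 3.38 in d3 and 50.04 ± 6.16 in d28. The d0 replicates (46.0, 42.5 and 29.8) were below the Mock replicates (52.4, 64.5 and 62.8), yet the log2 fold change of -0.60 ± 0.21 had an adjusted p of 0.241. MIR762HG followed with 38.5 ± 5.92, 37.8 ± 1.77, 49.98 ± 3.05 and 39.5 ± 6.07. The next hosts by mean level were MIR99AHG (31.7), MIRLET7BHG (29.8), MIR22HG (26.5), MIR4453HG (25.4), MIR9-3HG (21.6), MIR4435-2HG (21.6), MIR193BHG (21.6) and MIR3936HG (21.1). The plot of hosts by group shows that the SDs of most neighbours in this order overlapped. MIR100HG with a span of 394543 bases had 99 raw counts, whereas MIR22HG with 4707 bases had 304.

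The hosts with let-7 seed microRNAs differed in direction, and only MIRLET7BHG passed the test. MIR99AHG, the host of let-7c, miR-99a and miR-125b-2, had 30.7 ± 10.8 normalized counts in Mock, 36.2 ± 7.22 in d0, 28.5 ± 2.04 in d3 and 31.4 ± 0.586 in d28, and MIR100HG, the host of let-7a-2, miR-100 and miR-125b-1, had 9.76 ± 1.78, 7.52 ± 2.22, 7.72 ± 3.06 and 8.73 ± 1.59. MIR4458HG had the lowest unadjusted p of the hosts between d3 and d0 after MIRLET7BHG, with values of the opposite sign, namely 20.3 ± 6.58 in d0 and 10.1 ± 1.96 in d3 (log2 fold change -1.01 ± 0.33, adjusted p = 0.119, edgeR). The let-7 entries of the table numbered 11, of which 1 was a member and 3 could be tested.

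The list of microRNA genes of MLL leukaemia and blood development held 54 symbols, of which 31 were in the table, 10 were members and 12 could be tested. MIRLET7BHG was the only one of them called, in 3 of the 6 comparisons. MIR17HG, the host of the miR-17 to miR-92a-1 cluster on chromosome 13, had 16.6 ± 4.02 normalized counts in Mock, 19.7 ± 3.26 in d0, 22.1 ± 5.82 in d3 and 16.6 ± 1.96 in d28, and its log2 fold change of 0.25 ± 0.34 at d0 had an adjusted p of 0.86. The corresponding means of MIR34AHG, the host of the p53 target miR-34a, were 14.6, 15.3, 18.9 and 19.5. MIR181A1HG and MIR181A2HG, whose miR-181 products share the seed ACAUUCA, had group means of at most 7.82 and 12.1. The median log2 fold change of the tested entries of this list at d0, d3 and d28 was 0.21, -0.07 and 0.04. Of the 23 symbols fixed for neural microRNA genes, 15 were in the table, 2 were members (MIR9-3HG and MIR137HG) and 7 could be tested. None was called by edgeR in any comparison, with at most 1 of them at an unadjusted p below 0.05. Over all 27579 tested genes, 2434 to 3482 were below 0.05 in the 6 comparisons.

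The RefSeq list held 49 microRNA genes inside the 28 hosts, but 20 of them were listed in the table and the highest, MIR210, had 24 counts over all samples. None of the 6 microRNAs of the MIR17HG cluster, MIR22, MIR34A, MIR29C or MIR29B2 was listed. How reads over a hairpin inside a host were counted is not given in the sources used here. The 26 host promoters in the table had a median of 12.5 CG dinucleotides against 14 in all 27305 promoters.

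MIR762HG contained a further member in its promoter window. MIR4519, a single member with 155 counts, lies upstream of the RefSeq start of MIR762HG. In the promoter printed below (chr16:30875210-30875509, plus strand) the stretch that its hairpin covers is in capitals. The capitals give the plus-strand bases at this position and not the hairpin RNA as transcribed. The MIR762HG promoter held 36 CG dinucleotides, more than 87.5% of all promoters, while BCL7C overlaps both entries, and without strand their reads cannot be told apart from its own.
MIR762HG promoter: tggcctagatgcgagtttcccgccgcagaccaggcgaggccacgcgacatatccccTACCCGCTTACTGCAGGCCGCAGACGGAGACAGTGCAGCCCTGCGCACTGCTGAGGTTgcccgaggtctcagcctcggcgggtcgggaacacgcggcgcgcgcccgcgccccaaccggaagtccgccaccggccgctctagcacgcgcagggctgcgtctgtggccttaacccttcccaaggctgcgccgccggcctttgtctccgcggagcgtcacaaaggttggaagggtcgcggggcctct
MIR4519 had 22.5, 15.5 and 16.6 normalized counts in Mock, 16.2, 9.93 and 10.4 in d0, 9.24, 14.6 and 6.34 in d3, and 15.8, 11.95 and 10.2 in d28. All d3 samples were below all Mock samples, but the log2 fold change of -0.86 ± 0.36 had an adjusted p of 0.288, and MIR762HG had 0.36 ± 0.20 in the same comparison (adjusted p = 0.52). A member and its neighbour thus had values of opposite sign, and neither passed the test.

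MIR6723 was the highest and the most often called member. Its normalized counts were 271, 245 and 205 in Mock, 606, 623 and 510 in d0, 558, 502 and 333 in d3, and 1742, 1382 and 1367 in d28. No d28 sample overlapped any other group, and d0 and d3 overlapped each other above Mock. The log2 fold change against Mock was 1.26 ± 0.15 at d0 (adjusted p = 3.69e-14, edgeR), 0.94 ± 0.15 at d3 (adjusted p = 1.81e-07) and 2.63 ± 0.15 at d28 (adjusted p = 4.89e-70). This entry is known to lie in a nuclear copy of mitochondrial DNA, and reads of such copies cannot be told apart from reads of the mitochondrial genome itself where the sequences match. Per 10000 counts on mitochondrially encoded genes there were 15.5, 14.3 and 11.6 MIR6723 counts in Mock, 15.4, 14.8 and 14.3 in d0, 13.85, 14.04 and 13.8 in d3, and 13.6, 14.2 and 13.8 in d28. On this scale the Mock samples overlapped every other group and d3 overlapped d28, while each d0 sample lay above each d3 and d28 sample. The mitochondrial share was 26.4 to 27.0% in Mock, 42.0 to 45.6% in d0, 32.8 to 44.1% in d3 and 63.6 to 68.5% in d28.

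**Figure D2:**
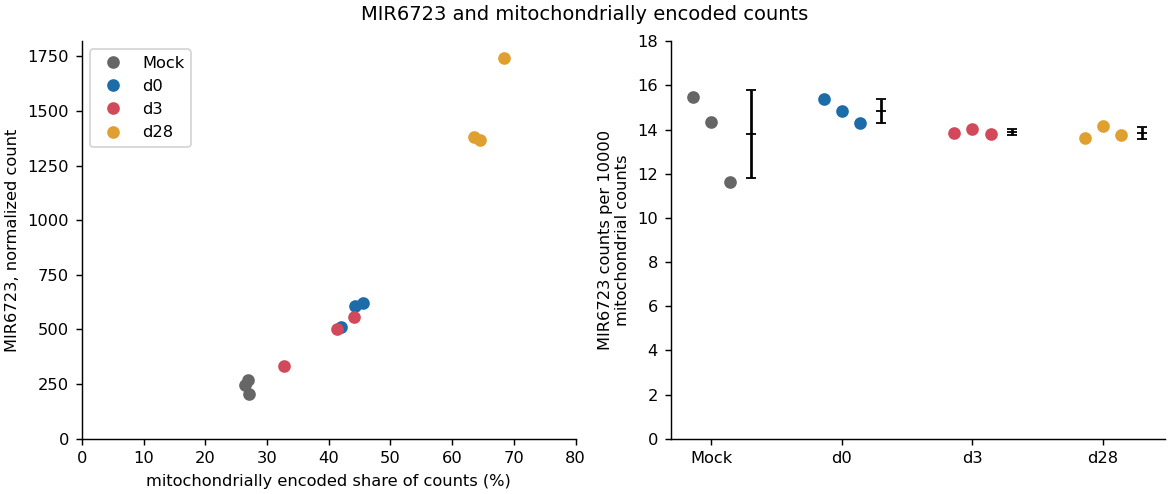
Left, normalized count of MIR6723 against the share of counts on mitochondrially encoded genes (%) in the 12 samples, coloured by group. Right, MIR6723 counts per 10000 mitochondrial counts for each replicate, with the mean and SD of 3 replicates in black, which stay between 11.6 and 15.5 in all samples.

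MIR3666 lies inside the FOXP2 gene (chr7:114653345-114653455, GRCh38.p14). It had 1, 0 and 4 raw counts in the Mock replicates, against 19, 12 and 13 in d0, 17, 9 and 14 in d3, and 23, 11 and 6 in d28. The normalized counts were 1.497, 0 and 7.38 in Mock, 23.6, 17.0 and 16.8 in d0, 13.1, 7.70 and 11.1 in d3, and 12.1, 7.73 and 8.74 in d28. Each sample of the other groups was above all Mock samples, but d3 replicate 2 and d28 replicate 2 only narrowly so. With 5 counts in Mock and 44 in d0, the ratio per effective depth was 7.66 (exact 95% Poisson interval 3.05 to 24.8). The log2 fold change was 2.87 ± 0.54 at d0 (adjusted p = 5.8e-05, edgeR), 2.03 ± 0.58 at d3 (adjusted p = 0.0404) and 1.92 ± 0.58 at d28 (adjusted p = 0.0615). The d0 call held in DESeq2 without its filter on low counts (adjusted p = 0.0303) but the d3 call did not (adjusted p = 0.463). The d3 call was also lost without Mock replicate 1 or 2 or d3 replicate 1 or 3. Of 10 other fits that left out no single replicate, 6 lost it, including library sizes only, filterByExpr and a replicate block. FOXP2 itself, a transcription factor gene, had 35.0 ± 10.8 normalized counts in Mock and 47.7 ± 3.53 in d0, and was not called (log2 fold change 0.50 ± 0.23, adjusted p = 0.457).

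MIR6090 lies inside ETS1, a transcription factor gene of blood cells (chr11:128522390-128522449). Its normalized counts were 4.49, 3.87 and 11.1 in Mock, 11.2, 19.9 and 22.0 in d0, 9.24, 1.71 and 6.34 in d3, and 6.86, 4.92 and 7.28 in d28. The d0 samples were above all d3 and d28 samples and, narrowly, above all Mock samples. The log2 fold change was -1.56 ± 0.40 for d3 versus d0 (adjusted p = 0.0186, edgeR) and -1.47 ± 0.39 for d28 versus d0 (adjusted p = 0.0184), while d0 versus Mock gave 1.51 ± 0.46 (adjusted p = 0.113). Both calls were lost in DESeq2 without its filter (adjusted p = 0.281 and 0.277) and when d0 replicate 2 or 3 was left out, the first also without d3 replicate 2 or 3 and the second without d28 replicate 1 or 2. ETS1 was not called in any comparison.

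**Figure D3:**
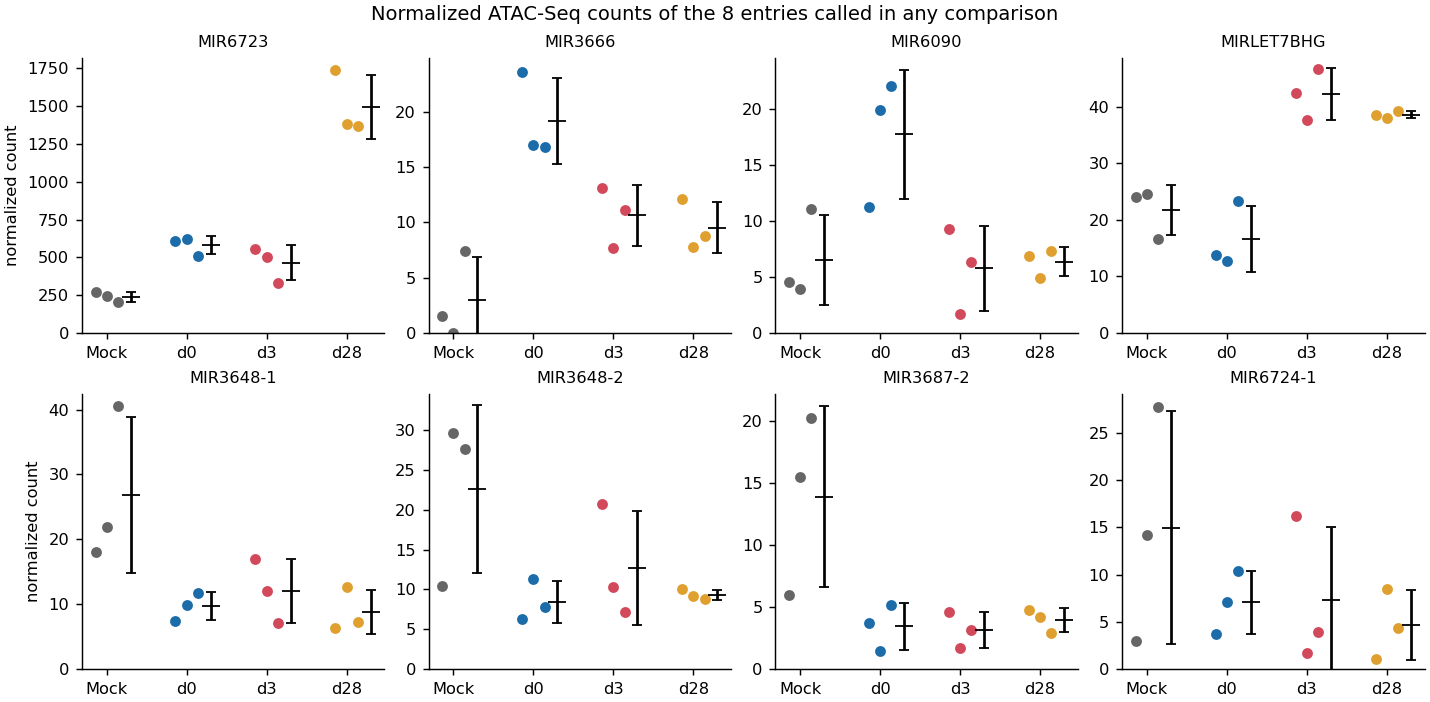
Normalized counts of the 8 members called in any comparison, with a point per replicate and the mean and SD of 3 replicates in black, each panel on its own axis from 0. MIRLET7BHG is high at d3 and d28, MIR3666 is lowest in Mock, MIR6090 is high at d0, and the 4 entries of the lower row are spread widely in Mock.

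The MIR3648, MIR3687 and MIR6724 entries belong to the ribosomal DNA repeat, whose copies stand on several chromosomes and code for the ribosomal RNA precursor. MIR3648-1 (chr21:8208473-8208652) lies within RNA45SN2, the precursor gene. Its normalized counts were 17.96, 21.9 and 40.6 in Mock, 7.46, 9.93 and 11.7 in d0, 16.9, 11.98 and 7.13 in d3, and 6.33, 12.7 and 7.28 in d28, and no sample of the other groups reached the lowest Mock sample. The log2 fold change was -1.41 ± 0.37 at d0 (adjusted p = 0.0269, edgeR), -1.09 ± 0.32 at d3 (adjusted p = 0.0461) and -1.55 ± 0.33 at d28 (adjusted p = 0.000763). MIR3648-2 gave -1.43 ± 0.39 (adjusted p = 0.0463), -0.81 ± 0.32 (adjusted p = 0.256) and -1.25 ± 0.34 (adjusted p = 0.0239). MIR3687-2, with 4, 12 and 11 raw counts in Mock and 1 to 9 in the other samples, gave -2.04 ± 0.51 at d3 (adjusted p = 0.00863) and -1.66 ± 0.47 at d28 (adjusted p = 0.037). Without its filter, DESeq2 kept the d28 call of MIR3648-1 (adjusted p = 0.0413) and none of the others of this repeat. Leaving out Mock replicate 3 ended each of these calls, including that of MIR3648-1 at d28, which was also lost without d28 replicate 1. The d3 call of MIR3648-1 was lost in 6 of 10 other fits that left out no single replicate. These included the fit without mitochondrially encoded genes in the library sizes.

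With the copies of each family summed, a fit chosen after the data were seen, the contrast with Mock was called for MIR3648 at d0, d3 and d28 (log2 fold change -1.43 ± 0.27, -0.96 ± 0.23 and -1.40 ± 0.24, adjusted p = 5.27e-05, 0.00444 and 1.34e-06, edgeR). MIR3687 was called on the same days (-1.53 ± 0.41, -1.29 ± 0.35 and -1.31 ± 0.35, adjusted p = 0.0345, 0.0285 and 0.0207), and MIR6724 at d28 (-1.25 ± 0.23, adjusted p = 2.07e-05). The MIR6724 sums varied most between replicates, with 17.96, 41.3 and 96.0 normalized counts in Mock, 69.3, 2.57 and 15.1 in d3 and 14.2, 23.9 and 29.1 in d28. The d28 and Mock samples thus overlapped despite the call, with 2 of 3 d28 samples above the lowest Mock sample. The MIR3648 sums of Mock (28.4, 51.6 and 68.3) and d3 (37.7, 22.3 and 14.3) overlapped as well. For MIR6724, d3 replicate 1 and Mock replicate 3 lay far above the rest of their groups. The d28 call of MIR6724-1 was lost without Mock replicate 2 or 3 or without d28 replicate 1. The RNA5-8SN1 to RNA5-8SN4 entries of the same repeat, which are not members, summed to 623, 710 and 818 in Mock and to between 280 and 438 in the 9 other samples. All 4 were called lower than Mock on each day, for instance RNA5-8SN4 with -1.25 ± 0.13 at d0, -0.84 ± 0.12 at d3 and -1.11 ± 0.12 at d28. By total counts the libraries of Mock were the shallowest. The effective library of Mock replicate 2 (721055) was above those of d0 replicates 2 and 3 and of d28 replicate 3 (655530, 717868 and 638444). The part of depth in these differences was not tested.

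**Figure D4:**
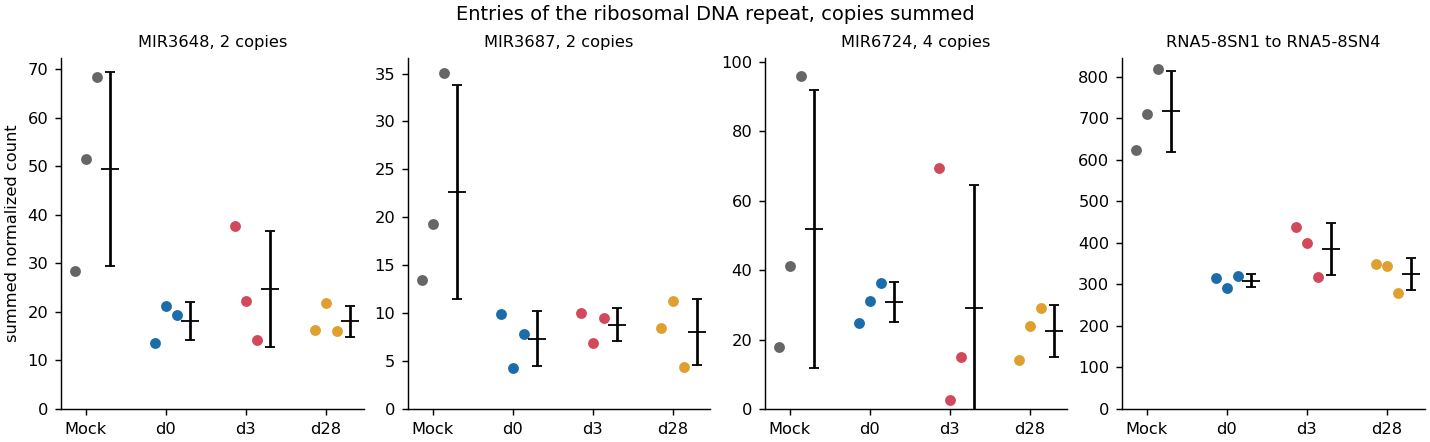
Summed normalized counts of the MIR3648, MIR3687 and MIR6724 copies and of RNA5-8SN1 to RNA5-8SN4 in the 4 groups, with a point per replicate and the mean and SD of 3 replicates in black. Mock is highest in the RNA5-8SN panel (623 to 818 against 438 at most), and the MIR6724 panel shows 1 d3 replicate at 69.3 with the other two at 15.1 or less.

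The 9 entries of the list of repeat and ribosomal DNA microRNAs that were members are MIR663AHG and the 8 entries of the 3 families. They included 2 called lower at d0, 2 at d3 and 4 at d28, and none called higher. Over all 27579 tested genes, 54, 121 and 168 were called lower. The 8 family entries belong to the same repeat and are not separate observations. The median log2 fold change of the 9 entries against Mock was -1.0, -0.75 and -1.25. The 5 MIR3180 entries were not called, and their sum was 94.0 ± 22.1 in Mock, 90.6 ± 2.31 in d0, 88.3 ± 8.42 in d3 and 71.8 ± 15.7 in d28 (d28 versus Mock log2 fold change -0.34 ± 0.15, adjusted p = 0.322).

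The other 26 single members were not called. The highest of them by mean normalized count were MIR3180-3 (20.4), MIR3180-1 (20.2), MIR3180-2 (19.3), MIR3175 (16.1), MIR3180-5 (15.3), MIR6087 (13.9), MIR1538 (13.8), MIR4470 (13.3) and MIR4519 (13.3). Against Mock their log2 fold changes ranged from -1.02 (MIR3687-1) to 1.26 (MIR5087) at d0, from -0.86 (MIR4519) to 0.77 (MIR449C) at d3 and from -1.40 (MIR6724-4) to 1.00 (MIR6077) at d28. Between d28 and d3, where MIR6723 alone was called, the next members by unadjusted p were MIR600HG (log2 fold change 0.94 ± 0.35, adjusted p = 0.34) and MIR3178 (-0.79 ± 0.35, adjusted p = 0.471). Among single members with a RefSeq length of the hairpin gene, the highest levels per 100 bases were those of MIR4519 (22.9), MIR1538 (22.7) and MIR3180-2 (21.9). MIR6723, MIR6087, MIR3687-1 and MIR3687-2 had no RefSeq length and are not ranked.

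The single members differed from the other single MIR entries in their sequence surroundings, as a description of a set chosen by counts. The median GC content of the hairpin was 71.6% in the 23 members with a RefSeq hairpin and 52.2% in 895 other entries. Of 28 members with a distance to a gene start, 7 (25.0%) lay within 1000 bases of it, compared with 91 of 1041 other entries (8.74%). A RefSeq gene overlapped 14 of 29 members (48.3%) and 813 of 1081 other entries (75.2%). Chromosome 16 held 8 of the positioned single members and chromosome 21 held 6. All MIR3180 copies lay on chromosome 16, and all 6 entries on chromosome 21 were MIR3648 or MIR6724 copies. Each copy was counted by itself in these comparisons, and copies are not separate observations. The MIR3180 and MIR6724 hairpins with a sequence had GC contents of 74.5% to 83.7%, above the median of the members. As gene starts are often both GC-rich and accessible in ATAC-Seq data, these features are not independent of the rule.

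The genes of the microRNA pathway, from the nuclear cutting complex to the turnover of mature RNAs, were examined from a fixed list of 28, all of which could be tested. None was called against Mock on any day by edgeR, and 5, 0 and 5 of them had an unadjusted p below 0.05 at d0, d3 and d28. Over all 27579 tested genes, 2662, 3118 and 3441 had one. Between days, the share of all tested genes called was 0.91% for d3 versus d0 and 1.35% for d28 versus d0. For d3 versus d0, DDX5, an RNA helicase of the DROSHA complex, was higher, with 95.8, 96.4 and 110 normalized counts in d0 and 143, 159 and 147 in d3 (log2 fold change 0.57 ± 0.14, adjusted p = 0.00808, edgeR). For d28 versus d0, DDX17, a related helicase, and TUT4, which adds uridines to the let-7 precursor, were higher (0.71 ± 0.19 and 0.90 ± 0.26, adjusted p = 0.0227 and 0.0449). The DDX17 counts of d28 were 70.7, 59.1 and 32.0, and the last of them lay below all d0 samples (38.6, 35.5 and 33.7). None of the 3 calls was kept by DESeq2 without its filter (adjusted p = 0.255, 0.424 and 0.398). DROSHA, DGCR8, DICER1, XPO5, AGO2 and LIN28B were not called in any comparison.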

How the data were processed

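ATAC-Seq data of 12 HEK293T samples (4 groups of 3) were analysed. The authors deposited 1 table of raw read counts per gene entry, without normalization. The submitters' processing notes name bcl2fastq, Bowtie2, HTSeq and the build GRCh38, with no versions. Whether duplicates were removed or reads shifted, which interval was counted and which annotation was used are not given in the sources used here. Groups and replicates were taken from the labels. The edgeR p-values rest on the spread between these samples as set for each gene by the trend over all genes. They do not measure the spread between the replicates of a single entry.

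The fit used edgeR 4.0.16 under R 4.3.3 (glmQLFit, glmQLFTest, all 12 samples). The filter asked for a group mean over 2 normalized counts in any of the 4 groups, with library sizes and TMM factors of the tested genes. DESeq2 1.42.0, other factors, filters and samples were alternatives. The fit was tested on simulated data for d3 versus Mock over 27579 genes, and recovered 38 of 100 genes with a log2 change of 1 and 85 of 100 with 2. Intervals cover counting error only.

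Members and gene lists were chosen with earlier results of these data known. Named are all called members, the 10 highest single and host entries, the 3 members of smallest p where fewer than 3 were called, entries next to the limit of 60 counts, list examples and microRNAs inside hosts. Symbols of 57 of 61 members matched RefSeq (GRCh38.p14). The summed level of a second marker list is not reported here.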

Additional observations from a re-analysis of the deposited data

Results flagged for a closer look

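Tests of the difference between days picked out 3 members, since a difference between 2 days is the difference of their effects against the shared Mock samples. MIRLET7BHG differed between d3 and d0 by 1.34 and between d28 and d0 by 1.20 on the log2 scale (adjusted p = 0.000243 and 0.000673, edgeR). MIR6090 differed by -1.56 and -1.47 in the same comparisons (adjusted p = 0.0186 and 0.0184). MIR6723 differed between d28 and d0 by 1.37 and between d28 and d3 by 1.69 (adjusted p = 5.5e-22 and 1.6e-34), while its count per 10000 mitochondrial counts was 13.6 to 15.4 in all samples of these 3 groups. Groups of 3 are too small for the search for single outlying samples.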

How the results depend on the processing

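The calls of MIR6723 in 5 comparisons and of MIRLET7BHG for d3 versus d0 held in every fit run. MIR3666 at d0 held wherever an adjusted p was given. Called members in the order d0, d3 and d28 versus Mock, d3 versus d0, d28 versus d0 and d28 versus d3 numbered 4, 5, 5, 2, 3 and 1. With the DESeq2 Wald test they numbered 1 in each comparison, but 54, 45, 42, 34, 58 and 0 members had no adjusted p there. Without independent filtering, an alternative added after seeing the data, DESeq2 called 2, 1, 2, 1, 2 and 1. With library sizes only they numbered 9, 6, 47, 1, 36 and 46, of which 46, 35 and 45 were lower in the 3 comparisons of d28, where this scaling moved the median log2 fold change of all genes by -1.36, -0.91 and -0.99, and by -0.45 and -0.37 for d0 and d3 versus Mock. This scaling also ended the call of MIRLET7BHG for d28 versus d0 (log2 fold change 0.29, adjusted p = 0.425, edgeR). On it, the log2 fold change of MIRLET7BHG at d28 versus Mock was -0.57, of MIR600HG at d28 versus d3 -0.063, and of DDX17 and TUT4 at d28 versus d0 -0.25 and -0.031. Without a filter beyond 1 count, 2 members were called at d0 and 2 at d28 versus Mock. For d3 versus Mock, filterByExpr and the fit of only the 6 samples gave 3 each. Members with 120 or more counts (31) gave 3 at d28 versus Mock and 1 for d3 versus d0. Leaving out each replicate gave 2 to 5, 1 to 8, 1 to 6, 1 to 2, 2 to 3 and 1 to 1. For d0 versus Mock, leaving out Mock replicate 3 or d0 replicate 1 or 2 gave 2. For d3 versus Mock, leaving out Mock replicate 1, 2 or 3 gave 3, 1 and 2, and d3 replicate 1, 2 or 3 gave 8, 3 and 2. For d28 versus Mock, Mock replicate 2 or 3 gave 2, d28 replicate 1 gave 1 and d28 replicate 2 gave 3. For d3 versus d0, replicate 2 or 3 of either group gave 1. The causes were not tested. TMM factors of all entries, added after seeing the data, also called MIRLET7BHG and MIR3666 at d28 versus Mock. Replicate numbers did not pair the samples (mean correlation of same-numbered deviations -0.07 to 0.03 over 8330 genes), and with a replicate block 3 members were called for d3 versus Mock. The mean normalized count was under 10 in 31 of 61 members, and no fit varied the depth.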
